A study of Mus musculus with 18 samples.

Results

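Chemokine ligands are small secreted proteins that draw leukocytes along a gradient through receptors on the arriving cells. The 8 ligand genes described here were given by name and looked up by gene ID among 49671 gene models. All 8 passed the filter on low counts, which kept 14080 models for testing. Of the 8, 4 are made by activated T cells and are called T cell made here (Ccl3, Ccl4, Ccl5 and Xcl1). The other 4 are also made by macrophages, monocytes and dendritic cells (Ccl8, Cxcl9, Cxcl10 and Cxcl16). The names do not mean that myeloid or other cells make none of the first 4.

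The libraries hold RNA of CD8+ or CD4+ T cells that flow cytometry isolated from melanoma grafts in B6 mice. The grafts were of B16f10-OVA, a line of mouse melanoma cells expressing ovalbumin, and had grown for 12 days under the skin of the hind flank. The treated deficient group carried a floxed miR-155 gene and a Cre driven by the CD4 promoter, and these mice were injected with anti-CTLA-4 and anti-PD-1/PD-L1 antibodies, which block inhibitory receptors of T cells, 3, 6 and 9 days into tumor growth. The deficient group had the floxed gene and the Cre without antibodies, and the floxed group had the floxed gene with no Cre named in its label. Each group has 3 libraries per cell type, 18 in all, and each library pools 2 to 3 tumors. The CD4-promoter Cre acts in the whole T cell lineage, so it deletes in CD8 as well as CD4 cells. Other cells of the tumor are outside the Cre's lineage. Floxed mice given the antibodies were not analysed here.

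MiR-155 is a microRNA that activated lymphocytes and myeloid cells make. It lowers transcripts that pair with its seed, bases 2 to 8. Its mature form is shown because its deletion defines the groups (RefSeq, GRCm38.p6, chr16:84714143-84714165, plus strand), with the seed in capitals.
miR-155-5p: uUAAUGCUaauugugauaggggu
The match to this seed, AGCATTA, was in the annotated 3′ untranslated region of 1736 of 20987 genes (8.27%). It was in none of the 8 ligands' regions, which are 141 bases long in Xcl1 and up to 2452 bases in Cxcl9. The absence of these letters says nothing of other ways of pairing.

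Ccl3 and Ccl4 are close relatives, and Ccl3 and Ccl5 bind Ccr1. Xcl1 binds Xcr1, a receptor of cross-presenting dendritic cells. Cxcl9 and Cxcl10 are induced by interferons, above all interferon gamma, and recruit T cells through Cxcr3. Cxcl16 is made as a membrane protein, can be shed, and binds Cxcr6. Mouse Ccl8 acts on Ccr8.

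In the files (GRCm38), 5 of the 8 genes are on chromosome 11. Ccl5 lies at chr11:83525778-83530518 (minus strand), Ccl3 at chr11:83647844-83649355 (minus) and Ccl4 at chr11:83662584-83664683 (plus). Ccl8 lies at chr11:82115185-82116799 (plus), and Cxcl16, apart from that cluster, at chr11:70453983-70459984 (minus). Cxcl9 (chr5:92321347-92328079) and Cxcl10 (chr5:92346638-92348889) are neighbours on the minus strand of chromosome 5. Xcl1 is at chr1:164931644-164935527 (minus).

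RefSeq promoter sequence was found for 5 of the 8 genes (Ccl3, Xcl1, Ccl8, Cxcl9 and Cxcl10), and Ccl4, Ccl5 and Cxcl16 had no entry. The 250 bases before the annotated start are shown for Cxcl10 (chr5:92348890-92349139) and Cxcl9 (chr5:92328080-92328329), which were called higher together in deficient CD8 cells, and for Ccl3 (chr11:83649379-83649628), called lower there. All 3 are from the minus strand of GRCm38.p6, and capitals mark an interferon response element and NF-kB sites.
Cxcl10: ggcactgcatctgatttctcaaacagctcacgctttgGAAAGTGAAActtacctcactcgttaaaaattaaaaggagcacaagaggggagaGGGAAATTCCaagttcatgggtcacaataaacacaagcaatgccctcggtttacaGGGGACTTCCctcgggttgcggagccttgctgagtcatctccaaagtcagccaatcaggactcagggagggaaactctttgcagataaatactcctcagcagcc
Cxcl9: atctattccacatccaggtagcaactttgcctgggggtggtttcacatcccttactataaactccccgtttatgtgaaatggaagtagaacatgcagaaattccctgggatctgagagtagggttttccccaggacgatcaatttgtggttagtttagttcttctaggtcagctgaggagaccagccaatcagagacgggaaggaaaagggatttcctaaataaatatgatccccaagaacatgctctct
Ccl3: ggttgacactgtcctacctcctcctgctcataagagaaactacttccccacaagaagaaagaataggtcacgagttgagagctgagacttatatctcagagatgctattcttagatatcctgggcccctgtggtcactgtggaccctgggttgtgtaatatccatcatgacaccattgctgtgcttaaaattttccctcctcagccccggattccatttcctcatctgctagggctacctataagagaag
Both strands of each window were searched, and positions count back from the annotated start. The Cxcl10 window held an interferon response element, read as GAAA and GAAA with 2 bases between, at -213 to -204, an NF-kB site, read as GGG and TTCC with 3 bases between, at -159 to -150 and at -104 to -95, and the AP-1 letters TGANTCA at -74 to -68. No 2 of these matches overlap. Of 32851 promoters of that length, 2.98% held the interferon letters, 4.65% the NF-kB letters and 6.75% the AP-1 letters. The letters TATAAA (12.4% of promoters) were at -195 to -190 in Cxcl9 and at -32 to -27 in Ccl8. The gamma activated site TTCNNNGAA (7.02%) and the T-box letters AGGTGTGA (1.12%) were in none of the 5 windows, and the Ccl3 and Xcl1 windows held none of the 6 motifs. A match is a description of the letters, and no match says nothing about the factor.

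Library totals ran from 3198435 to 11645432 counts, and 15165 to 19533 models had a count. Values are CPM, the usual per-library scale, after TMM scaling, and 3 counts correspond to 0.258 to 1.24 CPM depending on the library, for counting error only. The host transcript of miR-155, Mir155hg, was at 0.345 to 0.524 CPM in treated deficient, 0.236 to 1.90 CPM in deficient and 9.08 to 20.5 CPM in floxed CD8 libraries. In CD4 libraries it was at 0 to 0.191 CPM in treated deficient, 0 to 0.649 CPM in deficient and 4.88 to 8.24 CPM in floxed cells. Cd8a stood at 14.6, 150 and 142 CPM in the 3 floxed CD4 libraries, which is 7.82% of the floxed CD8 mean, and at 0.0332% of the deficient CD8 mean in deficient CD4 cells. Cd8b1, a second CD8 gene, was at 10% of the floxed CD8 mean in floxed CD4 cells. In deficient CD4 cells it was at 2.78% of the deficient CD8 mean. Cd4 was at 796 to 1091 CPM in treated deficient, 530 to 640 CPM in deficient and 233 to 470 CPM in floxed CD4 libraries. In CD8 libraries Cd4 was at 0 to 3.14 CPM. Ribosomal-like models took above 5% of the counts in 3 libraries: treated CD8 replicate 2 (25.6%), deficient CD4 replicate 3 (11.8%) and floxed CD8 replicate 1 (5.82%). The labels do not say that pools came from separate cohorts, so p-values reflect no more than the variation from library to library.

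The sorted cells held RNA of other cell types, and its amount differed between groups. The summed level of 20 macrophage and monocyte genes, all 20 of them detected in every group, was 544 to 843 CPM in treated deficient, 1671 to 3353 in deficient and 703 to 2271 in floxed CD8 libraries. In CD4 libraries it was 3215 to 5194 in treated deficient, 3622 to 5454 in deficient and 13713 to 29048 in floxed cells. Lyz2, C1qa, Cd68, Csf1r and Adgre1, defining genes of these cells, were above 0 in all 18 libraries. The summed level of 14 dendritic cell and antigen presentation genes was 364 to 587 CPM in treated deficient, 1129 to 1755 in deficient and 410 to 487 in floxed CD8 libraries, with Siglech at 0 in all 3 treated ones. In CD4 libraries it was 2337 to 3640 CPM in treated deficient, 3572 to 5357 in deficient and 7791 to 17828 in floxed cells. The summed level of 15 melanoma genes was 395 to 1802 CPM in treated deficient, 1465 to 3326 in deficient and 176 to 216 in floxed CD8 libraries. In CD4 libraries it was 474 to 2098 CPM in treated deficient, 1953 to 4594 in deficient and 169 to 693 in floxed cells. The summed level of 10 natural killer cell genes was 418 to 466 CPM in treated deficient, 294 to 305 in deficient and 198 to 283 in floxed CD8 libraries. In CD4 libraries these genes summed to 45.9 to 102 CPM in treated deficient, 50.5 to 71.8 in deficient and 90.2 to 135 in floxed cells. They include Eomes, which CD8 cells also express, and their part in the ligand levels was not tested. Floxed CD4 cells thus had the most macrophage RNA, and deficient cells of both types averaged the most melanoma RNA. In a bulk sort, fewer cells of a type and less RNA per cell cannot be told apart.

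**Figure D1:**
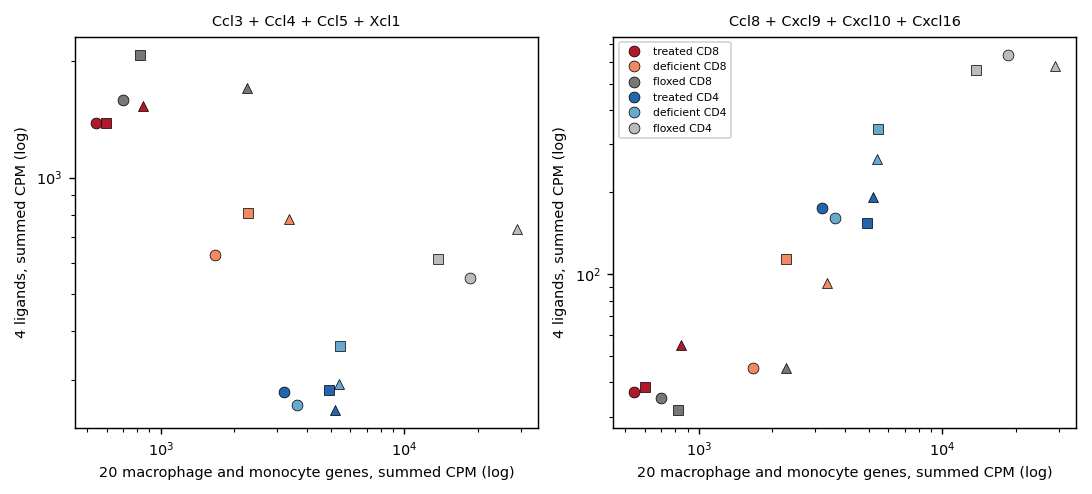
Summed CPM of the 4 T cell made ligands (left) and of the 4 ligands that myeloid cells also make (right) against the summed CPM of 20 macrophage and monocyte genes, both on log axes, 1 point per library, with the shape giving the replicate number (circle 1, square 2, triangle 3). The ligands on the right are at 31.7 to 114 CPM in CD8 libraries and at 154 to 641 CPM in CD4 libraries. Macrophage RNA is highest in floxed CD4 libraries, while deficient CD8 replicate 3 (3353 CPM) lies above treated CD4 replicate 1 (3215 CPM).

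The summed level of Ccl8, Cxcl9, Cxcl10 and Cxcl16 was 37.0 to 54.8 CPM in treated deficient, 45.1 to 114 in deficient and 31.7 to 45.4 in floxed CD8 libraries. In CD4 libraries it was 154 to 193 CPM in treated deficient, 161 to 342 in deficient and 564 to 641 in floxed cells, which also held the most macrophage RNA. The summed level of Ccl3, Ccl4, Ccl5 and Xcl1 was 1383 to 1533 CPM in treated deficient, 630 to 810 in deficient and 1585 to 2083 in floxed CD8 cells. In CD4 cells it was 250 to 281 CPM in treated deficient, 257 to 367 in deficient and 549 to 735 in floxed cells. CD8 and CD4 libraries did not overlap in the first sum. In the second sum they overlapped, since the highest floxed CD4 library was above the lowest deficient CD8 library. Pearson's r of each ligand with the summed macrophage level, on log2 scales, was taken over the 9 libraries of a cell type. In CD4 libraries it was 0.946 for Ccl3, 0.903 for Ccl4, 0.0111 for Ccl5 and 0.242 for Xcl1. The other 4 ligands were at 0.756 to 0.892 there. In CD8 libraries it was -0.535 for Ccl3, -0.664 for Ccl4, -0.665 for Ccl5 and 0.31 for Xcl1. The others were at 0.132 to 0.887. The 9 libraries fall into groups, and the macrophage level of floxed CD4 libraries lay above that of all other CD4 libraries. Each r is a description that mixes differences between groups with those within them. From which cells the ligands came was not tested.

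Per length of the gene model, which merges all annotated exons of a gene, the leading ligand differed between the groups. The order of the ligands depends on these annotated lengths. In treated deficient CD8 cells the order was Ccl3 (731 ± 31.3 CPM per kb, SD, n = 3), Ccl4 (630 ± 22.7), Xcl1 (472 ± 70.7) and Ccl5 (220 ± 42.2). In deficient CD8 cells Xcl1 came first, at 496 ± 54.8 CPM per kb, before Ccl3 at 302 ± 93.7, Ccl4 at 201 ± 61.0 and Ccl5 at 122 ± 15.9. In floxed CD8 cells the order was Ccl3 (1184 ± 216), Ccl4 (760.2 ± 96.5), Xcl1 (326 ± 121) and Ccl5 (220 ± 34.5 CPM per kb). Neighbours lay within their spread for Ccl3 and Ccl4 in deficient cells and for Xcl1 and Ccl5 in floxed cells, taking mean ± SD ranges that touch. The other 4 ligands were between 2.18 (Cxcl16, treated deficient) and 12.7 CPM per kb (Cxcl10, deficient) in CD8 cells.

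In CD4 cells the 2 kinds of ligand were mixed in the order. In treated deficient CD4 cells Ccl4 (129 ± 15.5) and Ccl3 (115 ± 13.2 CPM per kb) led within their spread. Ccl5 (74.7 ± 11.4), Xcl1 (48.5 ± 24.6), Ccl8 (45.1 ± 15.6) and Cxcl10 (37.0 ± 6.17 CPM per kb) followed, each within the spread of the next. In deficient CD4 cells Ccl4 (190.1 ± 38.7), Ccl3 (117 ± 38.1), Ccl5 (80.5 ± 9.40), Ccl8 (41.0 ± 30.5), Cxcl10 (40.0 ± 12.4) and Cxcl9 (35.8 ± 13.7 CPM per kb) likewise each touched the next. In floxed CD4 cells Ccl3 (400.4 ± 79.4) and Ccl4 (349 ± 40.0 CPM per kb) stood clear of Ccl8 (176 ± 87.4), which was followed by Cxcl9 (82.8 ± 8.10), Ccl5 (74.9 ± 5.09) and Cxcl10 (66.2 ± 11.2). Ccl8 thus ranked above Ccl5 in floxed CD4 cells, and Cxcl9 ranked above it by mean only, with spreads that touched.

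**Figure D2:**
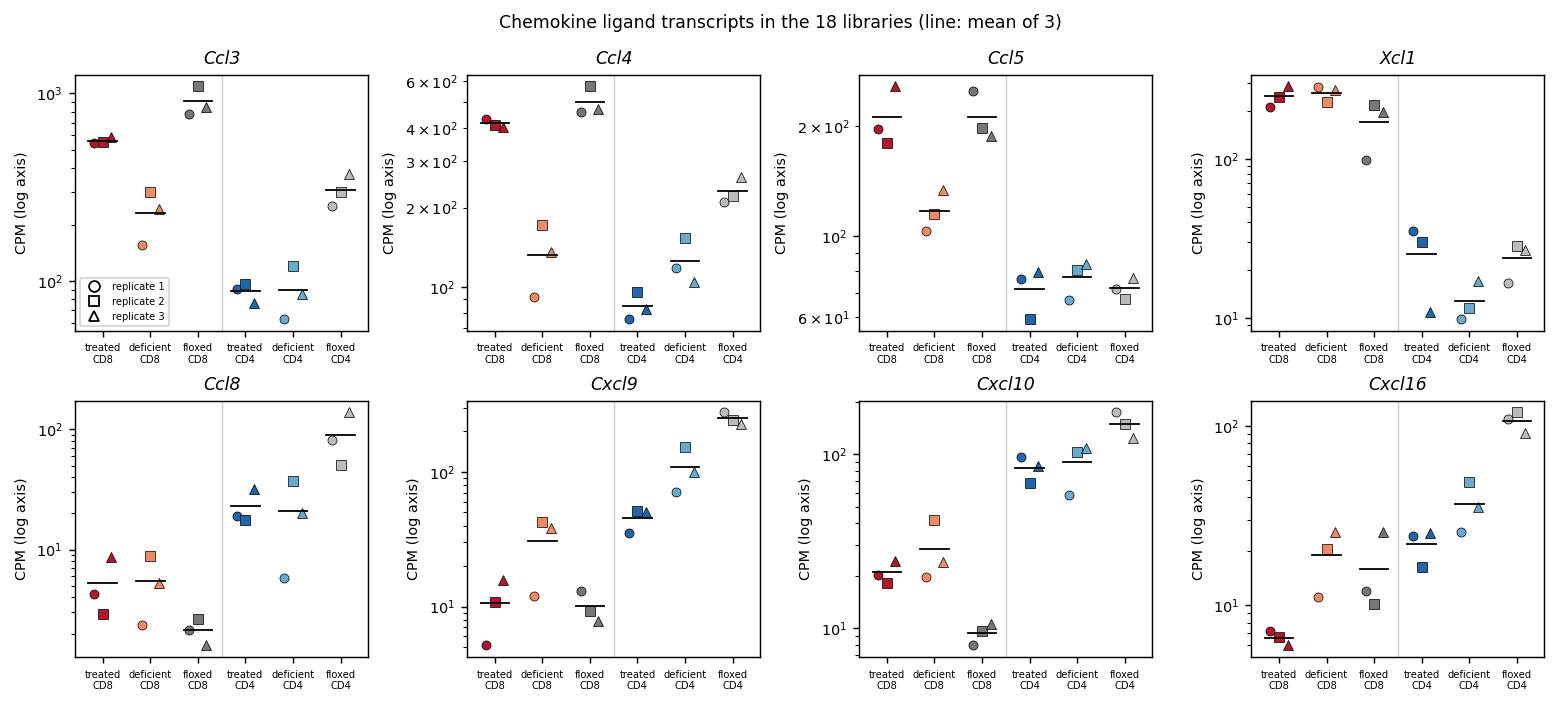
CPM of each of the 8 ligands (log axes that differ between panels) in the 18 libraries, by group, with the mean of 3 libraries as a line and the shape giving the replicate number. Ccl3 and Ccl4 are lowest in deficient cells among the CD8 groups, and Ccl8, Cxcl9, Cxcl10 and Cxcl16 are highest in floxed CD4 cells.

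Deletion of miR-155 was examined first in CD8 cells, as deficient against floxed libraries. Ccl3, Ccl4 and Ccl5 fell and Cxcl9 and Cxcl10 rose in deficient CD8 cells, so 3 of the 4 T cell made ligands were called lower and 2 of the other 4 higher. Over all genes tested, 9.65% were called higher and 9.61% lower. The median log2 fold change was -1.38 over the T cell made ligands and 1.46 over the others, against -0.01 over all genes.

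Ccl3 had 155, 297 and 243 CPM in deficient CD8 libraries, against 779, 1094 and 849 CPM in floxed CD8 libraries. Every deficient library was below every floxed one, and the mean fell 3.92-fold (log2 fold change -1.97 ± 0.24 SE, adjusted p = 3.75e-05). Adjusted p-values are from the quasi-likelihood test of edgeR, by Benjamini-Hochberg over all genes tested. Ccl4, its relative next to it on the chromosome, had 91.5, 172 and 135 CPM in deficient cells, against 458, 575 and 473 CPM in floxed cells (log2 fold change -1.92 ± 0.18, adjusted p = 1.68e-06). The groups again did not overlap. Overlap is given throughout as a description, and the share of all genes without overlap was not computed. Ccl5, which T cells make late after activation, had 103, 115 and 134 CPM in deficient cells, against 249, 197 and 188 CPM in floxed cells. Its groups did not overlap either, and its log2 fold change was -0.85 ± 0.15 (adjusted p = 0.000686).

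Xcl1 was not called. It had 281, 227 and 271 CPM in deficient CD8 cells, against 98.8, 217 and 196 CPM in floxed CD8 cells, with a log2 fold change of 0.60 ± 0.35 (adjusted p = 0.264) and a 95% interval of -0.16 to 1.37. All 3 deficient libraries were above the floxed ones, of which replicate 1 was lowest. Cxcl10 had 19.7, 42.1 and 23.96 CPM in deficient cells, against 7.98, 9.60 and 10.5 CPM in floxed cells, with no overlap (1.61 ± 0.28, adjusted p = 0.000692). Its counts were 151 to 330 in deficient and 56 to 98 in floxed libraries.

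Cxcl9 had 12.0, 42.5 and 38.2 CPM in deficient CD8 cells, against 13.1, 9.31 and 7.83 CPM in floxed CD8 cells. The groups overlapped through deficient replicate 1 and floxed replicate 1, and the call was near the threshold (1.60 ± 0.47, adjusted p = 0.0292). Ccl8 (2.36, 8.81 and 5.24 CPM in deficient, against 2.14, 2.65 and 1.60 in floxed cells) and Cxcl16 (11.1, 20.7 and 25.7 CPM in deficient, against 12.0, 10.2 and 25.5 in floxed cells) passed no test. Their log2 fold changes were 1.31 ± 0.73 for Ccl8 (adjusted p = 0.244) and 0.29 ± 0.33 for Cxcl16 (adjusted p = 0.614).

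Macrophage genes rose with Cxcl9 and Cxcl10 in deficient CD8 cells, with 8 of 20 called higher and none lower, and so did 13 of 15 melanoma genes. Of the 14 dendritic cell and antigen presentation genes 7 rose and none fell, among them H2-Aa, a class II chain (1.92 ± 0.37, adjusted p = 0.0025), and Ccr7, which T cells also express (1.73 ± 0.31, adjusted p = 0.00124). Of 12 T cell genes 4 fell beside Ccl3, Ccl4 and Ccl5 and none rose, namely Cd3e (-1.79 ± 0.47, adjusted p = 0.0176, with floxed replicate 1 at 466 CPM), Zap70 (-0.58 ± 0.16, adjusted p = 0.0139), Cd3g (-0.57 ± 0.15, adjusted p = 0.00956) and Cd6 (-0.47 ± 0.16, adjusted p = 0.0469). Cd8a was at 624 to 728 CPM in deficient and 1145 to 1449 CPM in floxed CD8 libraries. The part of the dendritic cell and T cell genes in the result was not tested. With the macrophage level as a covariate, Cxcl9 was at 1.09 (adjusted p = 0.298) and Cxcl10 at 1.47 (adjusted p = 0.0123). With both marker levels as covariates, Ccl4 alone was called (-1.89, adjusted p = 0.0151), Ccl3 stood at -1.79 (adjusted p = 0.0678), Ccl5 at -1.13 (adjusted p = 0.0585) and Cxcl10 at 1.18 (adjusted p = 0.394). Over all genes 1786 were called with the macrophage level and 130 with both, against 2712 without covariates. The melanoma level did not overlap between these groups, so calls lost with both covariates cannot separate it from the deletion. The Cxcl9 call was lost with limma voom (adjusted p = 0.0769), without the 3 libraries rich in ribosomal-like counts (adjusted p = 0.0884), and in 5 of 6 fits without a library, namely deficient CD8 replicate 2 (0.118), 3 (0.0902) and floxed CD8 replicate 1 (0.0567), 2 (0.0921), 3 (0.0843, all adjusted p).

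The other ligands, the receptors and the induction pathway were taken from lists chosen with earlier results of these data known. Of 30 other chemokine ligands, 19 were tested, and 6 rose and none fell in deficient CD8 cells. Among the 6 were the monocyte attractants Ccl2 (68.5 CPM in deficient against 11.9 CPM in floxed cells, log2 fold change 2.54 ± 0.56, adjusted p = 0.00714) and Ccl7 (2.20 ± 0.55, adjusted p = 0.0129). Ccl6, a myeloid ligand (2.04 ± 0.47, adjusted p = 0.00848), and Pf4, a ligand of platelets and macrophages (2.90 ± 0.73, adjusted p = 0.0126), were also higher.

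Cxcr6, the receptor of Cxcl16, averaged 251 ± 26.5 CPM in deficient CD8 cells and 797 ± 160 CPM in floxed CD8 cells (SD, n = 3 each), a log2 fold change of -1.67 ± 0.18 (adjusted p = 6.21e-06). Ccr8, the receptor of mouse Ccl8, fell by 1.62 (adjusted p = 0.000458). Cxcr3, the receptor of Cxcl9 and Cxcl10, rose to 109 ± 13.3 CPM in deficient cells, against 53.9 ± 2.07 CPM in floxed cells (1.02 ± 0.24, adjusted p = 0.00713). Ccr1, which macrophages also carry, rose by 1.18 (adjusted p = 0.016). Xcr1 averaged 1.13 CPM in deficient and 0.098 CPM in floxed cells and was not called (adjusted p = 0.0761).

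Ifng itself averaged 355 ± 159 CPM in deficient CD8 cells and 753 ± 136 CPM in floxed CD8 cells, at -1.09 ± 0.41 (adjusted p = 0.0852). Of 22 genes of interferon gamma signalling and chemokine induction, 7 fell in deficient CD8 cells. The receptor chain Ifngr1 (1.08 ± 0.14, adjusted p = 2.23e-05), the kinase Jak2 (0.60 ± 0.11, adjusted p = 0.00096) and the factor Irf1 (0.66 ± 0.13, adjusted p = 0.00111) rose. Irf8 (-1.08 ± 0.16, adjusted p = 7.34e-05), the NF-kB inhibitor Nfkbia (-0.72 ± 0.16, adjusted p = 0.00342) and Irf4 (-1.06 ± 0.24, adjusted p = 0.00572), which T cell receptor signals induce, were among those that fell. Of 5 genes of chemokine processing, Dpp4, a protease that trims Cxcl10 and other ligands, rose by 0.48 ± 0.13 (adjusted p = 0.0127) and the other 4 were not called.

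**Figure D3:**
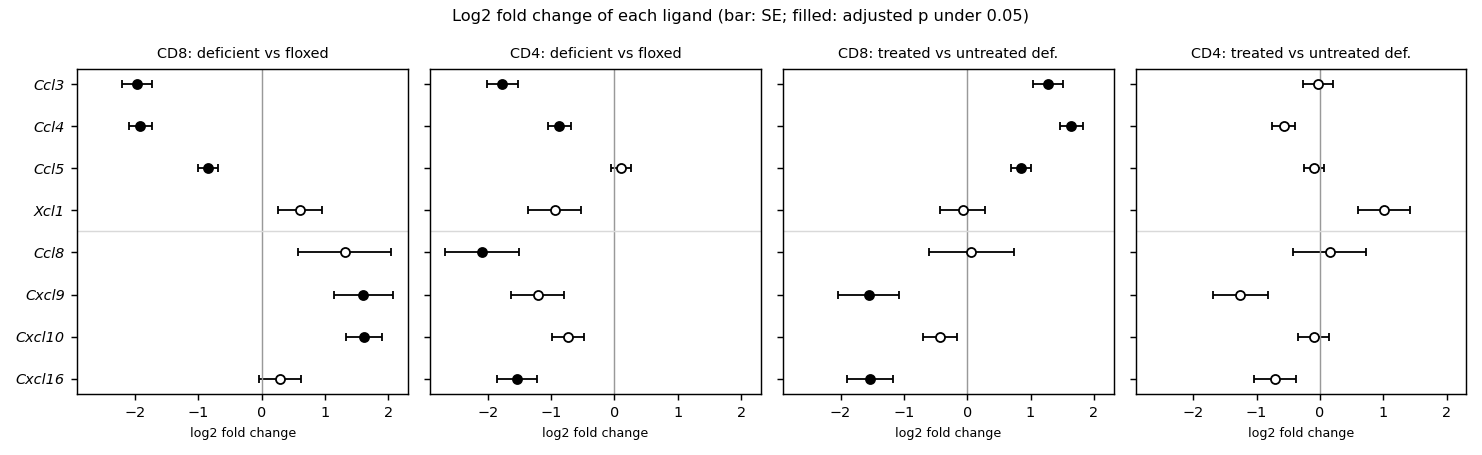
Log2 fold change of the 8 ligands with its SE in the deletion comparisons (deficient against floxed) and the blockade comparisons (treated against untreated deficient) of CD8 and CD4 cells, with filled points at an adjusted p under 0.05. In CD8 cells Ccl3, Ccl4 and Ccl5 are at -1.97, -1.92 and -0.85 in the deletion panel and at 1.27, 1.65 and 0.85 in the blockade panel; no ligand is filled in the CD4 blockade.

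In CD4 cells the deletion was accompanied by lower levels of both kinds of ligand. Ccl3, Ccl4, Ccl8 and Cxcl16 were called lower in deficient CD4 cells and no ligand higher, against 7.06% of all genes called lower and 4.61% higher. The median log2 fold change was -0.91 over the T cell made ligands and -1.38 over the others, against 0.01 over all genes.

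Ccl3 had 62.7, 121 and 85.7 CPM in deficient CD4 cells, against 250, 299 and 371 CPM in floxed CD4 cells (-1.77 ± 0.24, adjusted p = 0.00025). Ccl4 had 118, 154 and 105 CPM in deficient cells, against 211, 220 and 260 CPM in floxed cells (-0.87 ± 0.18, adjusted p = 0.00367). Neither gene's groups overlapped. Ccl5 stood at 67.004, 80.8 and 84.0 CPM in deficient cells, against 71.7, 67.1 and 76.9 CPM in floxed cells, overlapping throughout (0.10 ± 0.16, adjusted p = 0.761, 95% interval -0.24 to 0.45). Xcl1 had 9.87, 11.6 and 16.97 CPM in deficient cells, against 16.7, 28.3 and 26.6 CPM in floxed cells (-0.94 ± 0.42, adjusted p = 0.183), and the groups overlapped at a single pair of libraries.

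Cxcl16 had 25.7, 48.8 and 35.3 CPM in deficient CD4 cells, against 110, 119 and 91.1 CPM in floxed CD4 cells (-1.54 ± 0.32, adjusted p = 0.00455). Ccl8 had 5.84, 37.0 and 20.1 CPM in deficient cells, against 81.1, 50.1 and 138 CPM in floxed cells (-2.09 ± 0.58, adjusted p = 0.0317). The groups did not overlap for either gene, and the Ccl8 libraries varied widely within each group (coefficient of variation 74.4% in deficient and 49.7% in floxed cells). Cxcl9 had 71.0, 152 and 101 CPM in deficient cells, against 276, 245 and 228 CPM in floxed cells, and Cxcl10 had 58.0, 104 and 109 CPM in deficient cells, against 174, 150.2 and 123.4 CPM in floxed cells. Neither was called, at -1.21 ± 0.42 for Cxcl9 (adjusted p = 0.0811) and -0.73 ± 0.25 for Cxcl10 (adjusted p = 0.0657), although no deficient library reached a floxed one. DESeq2 called Cxcl10 (adjusted p = 0.0334), and limma voom called Cxcl9 (adjusted p = 0.00575) and Cxcl10 (adjusted p = 0.016).

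In deficient CD4 cells 17 of 20 macrophage genes and 6 of 14 dendritic cell and antigen presentation genes fell, Ccr7 and 1 of 12 T cell genes rose, 10 of 15 melanoma genes rose, and Cd8a was at 0.136 to 0.283 CPM, against 14.6 to 150 CPM in floxed CD4 libraries. Cd8b1 was at 6.79 to 17.4 CPM in deficient and 17.5 to 96.6 CPM in floxed CD4 libraries. Cd4 was at 530 to 640 CPM in deficient and 233 to 470 CPM in floxed CD4 libraries. With the macrophage level as a covariate no ligand was called, with Ccl3 at -1.40 (adjusted p = 0.136), Ccl4 at -0.64 (adjusted p = 0.365), Ccl8 at -0.18 (adjusted p = 0.953) and Cxcl16 at -0.61 (adjusted p = 0.575). Over all genes 93 were called in that fit, against 1643 without the covariate. The macrophage level did not overlap between these groups, so the lost calls cannot separate it from the deletion. The Ccl8 call was also lost in a fit of CD4 libraries alone (adjusted p = 0.0964), without the libraries rich in ribosomal-like counts (0.128), and without deficient CD4 replicate 1 (0.0772) or 3 (0.0842) or floxed CD4 replicate 3 (0.139, all adjusted p).

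Of the 19 other ligands tested, 8 fell and none rose in deficient CD4 cells. Ccl6 averaged 371 CPM in deficient and 2444 CPM in floxed CD4 cells (-2.72 ± 0.46, adjusted p = 0.00227), and Ccl9, a further myeloid ligand, 245 CPM in deficient and 1479 CPM in floxed cells (-2.59 ± 0.37, adjusted p = 0.000664). The neutrophil attractants Cxcl1 (-4.66 ± 0.81, adjusted p = 0.00123) and Cxcl2 (-2.73 ± 0.54, adjusted p = 0.00569) fell, as did Ccl7 (-2.29 ± 0.48, adjusted p = 0.00847) and Pf4 (-2.29 ± 0.56, adjusted p = 0.0169). These are genes that myeloid cells make, and the macrophage markers fell in the same libraries; their part in the result was not tested.

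Among the receptors in CD4 cells, Ccr3 rose (1.70 ± 0.40, adjusted p = 0.00936), and Ccr1 fell (-1.18 ± 0.30, adjusted p = 0.0175). Cxcr6 averaged 309 ± 54.3 CPM in deficient and 357 ± 49.1 CPM in floxed CD4 cells (adjusted p = 0.534), and Cxcr3 204 CPM in deficient and 158 CPM in floxed cells (adjusted p = 0.378). Ifng fell to 52.7 ± 18.02 CPM in deficient CD4 cells, against 158 ± 55.2 CPM in floxed CD4 cells (-1.60 ± 0.44, adjusted p = 0.0305), and Tnf fell by 0.96 (adjusted p = 0.017). Ifngr1 (0.56 ± 0.13, adjusted p = 0.00881) and Jak2 (0.36 ± 0.11, adjusted p = 0.044) rose. Dpp4 rose by 0.86 (adjusted p = 0.000447), and Adam17, a protease that sheds membrane proteins, fell by 0.43 (adjusted p = 0.0175).

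The deletion effect differed between the cell types for 6 of the 8 ligands, by the interaction term of the fit. Relative to CD4 cells, the effect in CD8 cells was lower for Ccl4 (-1.05 ± 0.25, adjusted p = 0.00978) and Ccl5 (-0.95 ± 0.22, adjusted p = 0.00685). It was higher for Cxcl10 (2.35 ± 0.38, adjusted p = 0.000559), Cxcl9 (2.81 ± 0.63, adjusted p = 0.0103), Cxcl16 (1.83 ± 0.46, adjusted p = 0.0143) and Ccl8 (3.399 ± 0.93, adjusted p = 0.0288). All 4 ligands that myeloid cells also make were thus called, where 6.89% of all genes were called higher and 4.72% lower. Ccl3 was not called, at -0.20 ± 0.33 (adjusted p = 0.779, 95% interval -0.92 to 0.52), and Xcl1 was at 1.55 ± 0.55 (adjusted p = 0.0888). The same term was called higher for 17 of 20 macrophage genes. With their level as a covariate none of the 6 was called, and over all genes 80 were, against 1634 without it. Ccl4 (-1.41) and Ccl5 (-1.17) were then larger in size, and Cxcl10 (1.94), Cxcl9 (1.55), Cxcl16 (0.41) and Ccl8 (0.36) smaller. That level differed between the groups compared, so the lost calls cannot separate it from the deletion effect.

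Antibody treatment was compared within deficient mice. In CD8 cells Ccl3, Ccl4 and Ccl5 rose and Cxcl9 and Cxcl16 fell in treated deficient cells, against 8.25% of all genes called higher and 5.53% lower. This comparison shares the deficient libraries with the deletion comparison, so opposite signs in both are not independent.

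Ccl3 had 544, 548 and 588 CPM in treated deficient CD8 cells, against 155, 297 and 243 CPM in deficient CD8 cells (1.27 ± 0.23, adjusted p = 0.00156). Ccl4 had 432, 412 and 403 CPM in treated cells, against 91.5, 172 and 135 CPM in deficient cells (1.65 ± 0.18, adjusted p = 8.17e-06). Ccl5 had 196, 180 and 257 CPM in treated cells, against 103, 115 and 134 CPM in deficient cells (0.85 ± 0.16, adjusted p = 0.000912). For none of the 3 did a treated library overlap a deficient one, and the treated libraries varied little among themselves for Ccl3 (coefficient of variation 4.28%) and Ccl4 (3.60%). Xcl1 had 212, 243 and 286 CPM in treated cells, against 281, 227 and 271 CPM in deficient cells, and gave -0.07 ± 0.35 (adjusted p = 0.923, 95% interval -0.84 to 0.69).

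Cxcl16 had 7.15, 6.62 and 5.98 CPM in treated deficient CD8 cells, against 11.1, 20.7 and 25.7 CPM in deficient CD8 cells (-1.53 ± 0.36, adjusted p = 0.00889). Its treated libraries held 16 to 83 counts. Cxcl9 had 5.17, 10.8 and 15.8 CPM in treated cells, against 12.0, 42.5 and 38.2 CPM in deficient cells, with overlap between treated replicate 3 and deficient replicate 1 (-1.56 ± 0.48, adjusted p = 0.0458). Cxcl10 (20.3, 18.2 and 24.2 CPM in treated, against 19.7, 42.1 and 23.96 CPM in deficient cells) and Ccl8 (4.31, 2.90 and 8.71 CPM in treated, against 2.36, 8.81 and 5.24 CPM in deficient cells) overlapped. Their values were -0.43 ± 0.27 for Cxcl10 (adjusted p = 0.316) and 0.07 ± 0.67 for Ccl8 (adjusted p = 0.966).

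In treated deficient CD8 cells 17 of 20 macrophage genes fell and no melanoma gene was called. Of the 14 dendritic cell and antigen presentation genes 8 fell and Itgax rose, and of 12 T cell genes 4 rose (Cd3d, Cd3g, Zap70 and Cd6, at 0.51 to 0.91) and none fell. Cd8a was at 976 to 1168 CPM in treated and 624 to 728 CPM in deficient CD8 libraries; the part of these genes in the result was not tested. With the macrophage level as a covariate, Ccl3 (1.62, adjusted p = 0.024), Ccl4 (1.86, adjusted p = 0.00104) and Ccl5 (0.98, adjusted p = 0.0222) were called, and Cxcl9 (-0.85, adjusted p = 0.625) and Cxcl16 (-0.60, adjusted p = 0.544) were not. With both marker levels as covariates, Ccl3 was at 1.45 (adjusted p = 0.0776). Over all genes 615 were called with the macrophage level and 239 with both, against 1941 without covariates. The macrophage level did not overlap between treated and deficient CD8 libraries. Calls kept or lost with it thus cannot separate it from the treatment. The Cxcl16 call was lost without deficient CD8 replicate 3 (adjusted p = 0.0524). The Cxcl9 call was lost without any 1 of 4 CD8 libraries (treated replicates 1, 0.188, and 2, 0.115; deficient replicates 2, 0.155, and 3, 0.146), without the libraries rich in ribosomal-like counts (0.147), in CD8 libraries alone (0.0579) and with limma voom (0.0592, all adjusted p).

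Among the receptors, no gene fell in treated deficient CD8 cells, and Cxcr6 rose. It averaged 1144 ± 15.7 CPM in treated and 251 ± 26.5 CPM in deficient cells (2.19 ± 0.19, adjusted p = 7.04e-07). Cxcr3 stood at -0.41 ± 0.24 (adjusted p = 0.281), and Xcr1 was near the limit of detection in both groups. Of the other ligands, 2 of 19 fell, among them Ccl6 (-1.96 ± 0.47, adjusted p = 0.0143). Of the 22 induction genes 4 rose and 1 fell. Irf8 (1.07 ± 0.16, adjusted p = 0.000117), Nfkbia (0.65 ± 0.16, adjusted p = 0.00922), Irf4 (1.01 ± 0.25, adjusted p = 0.0101) and the T-box factor Tbx21 (0.82 ± 0.21, adjusted p = 0.0149) rose, and the receptor chain Ifngr2 fell (-2.68 ± 0.49, adjusted p = 0.00184). Ifng averaged 785 ± 36.2 CPM in treated and 355 ± 159 CPM in deficient cells (1.15 ± 0.42, adjusted p = 0.0877).

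In CD4 cells the antibodies gave no called ligand. Over all genes only 0.0852% were called higher and 0.0568% lower. By edgeR 0 of 8 ligands passed, and DESeq2 and limma voom also called 0. An unadjusted edgeR p under 0.05 was found for 4 ligands (Ccl4, Xcl1, Cxcl9 and Cxcl16) and for 1590 of the 14080 genes tested. Ccl3 had 91.1, 96.1 and 76.6 CPM in treated deficient CD4 cells, against 62.7, 121 and 85.7 CPM in deficient CD4 cells (-0.03 ± 0.24, adjusted p = 0.979, 95% interval -0.55 to 0.48).

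Ccl4 had 75.9, 96.1 and 83.0 CPM in treated deficient CD4 cells, against 118, 154 and 105 CPM in deficient CD4 cells, with no overlap (-0.57 ± 0.18, adjusted p = 0.237). Cxcl9 had 35.3, 51.5 and 49.98 CPM in treated cells, against 71.0, 152 and 101 CPM in deficient cells, again with no overlap (-1.26 ± 0.43, adjusted p = 0.289). Xcl1 had 35.4, 29.8 and 10.9 CPM in treated cells, against 9.87, 11.6 and 16.97 CPM in deficient cells (1.01 ± 0.41, adjusted p = 0.368). Treated replicate 3 lay within the deficient range for Xcl1. The values for Ccl5 (-0.09 ± 0.16), Ccl8 (0.15 ± 0.58), Cxcl10 (-0.10 ± 0.25) and Cxcl16 (-0.71 ± 0.32) had adjusted p-values of 0.867, 0.957, 0.92 and 0.414. Cxcr6 was the only one of the receptor, induction, processing and other-ligand genes called, at 697 ± 197 CPM in treated and 309 ± 54.3 CPM in deficient CD4 cells (1.17 ± 0.18, adjusted p = 0.0104), and no macrophage or melanoma gene was called.

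The blockade effect differed between CD8 and CD4 cells for Ccl4 (2.22 ± 0.26, adjusted p = 0.00015) and Ccl5 (0.95 ± 0.22, adjusted p = 0.0466). All genes were called at 0.575% higher and 0.227% lower in this term. Ccl3 was at 1.31 ± 0.33 (adjusted p = 0.0846), and with libraries of the same number and mouse condition paired it was called (1.31, adjusted p = 0.00129), as 286 genes were, against 113 unpaired. DESeq2 also called Ccl3 (adjusted p = 0.00986). The remaining 5 ligands were not called, with differences of -1.09 to -0.09. The Ccl5 call was lost in 10 of 12 fits that left out a library (adjusted p 0.0368 to 0.156 over the 12), with another scaling (0.0621), with a stricter count filter (0.0563), with limma voom (0.0683), with the macrophage level as a covariate (0.077) and without the libraries rich in ribosomal-like counts (0.0782), and of the 12 it was kept in those without deficient CD8 replicate 3 and without deficient CD4 replicate 1.

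Treated deficient cells were also set against untreated floxed cells, a comparison in which deletion and antibodies differ together. In CD8 cells, Ccl5 had 196, 180 and 257 CPM in treated deficient cells, against 249, 197 and 188 CPM in floxed cells, and gave 0.00 ± 0.15 (adjusted p = 1, 95% interval -0.34 to 0.33). Ccl4 stood at -0.27 ± 0.18 (adjusted p = 0.401) and Ccl3 at -0.70 ± 0.23 (adjusted p = 0.0863). Ccl3 was at 544 to 588 CPM in treated libraries, against 779 to 1094 CPM in floxed ones, with no overlap. Cxcl10 was the only ligand called, at 18.2 to 24.2 CPM in treated deficient and 7.98 to 10.5 CPM in floxed CD8 libraries (1.18 ± 0.29, adjusted p = 0.0263), where 2.69% of genes were called higher and 2.32% lower.

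That Cxcl10 call was lost with limma voom (adjusted p = 0.102), without the libraries rich in ribosomal-like counts (0.189), and without treated CD8 replicate 1 (0.0771), 2 (0.0656) or 3 (0.102) or floxed CD8 replicate 1 (0.109, all adjusted p). Cxcl16 (-1.24 ± 0.37, adjusted p = 0.0564), Xcl1 (0.53 ± 0.35, adjusted p = 0.419), Ccl8 (1.38 ± 0.74, adjusted p = 0.298) and Cxcl9 (0.05 ± 0.51, adjusted p = 0.974) were not called by edgeR. DESeq2 called Ccl3 (-0.72, adjusted p = 0.0259) and Cxcl16 (-1.29, adjusted p = 0.0078). A missed threshold does not show that treated deficient and floxed CD8 cells had equal levels.

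In CD4 cells 6 of the 8 ligands were lower in treated deficient than in floxed cells, where 8.08% of genes were called lower and 4.08% higher. They were Ccl3 (-1.80 ± 0.24, adjusted p = 0.000129), Ccl4 (-1.44 ± 0.18, adjusted p = 4.52e-05), Cxcl16 (-2.25 ± 0.33, adjusted p = 0.000232), Cxcl9 (-2.46 ± 0.44, adjusted p = 0.00255), Cxcl10 (-0.83 ± 0.25, adjusted p = 0.035) and Ccl8 (-1.94 ± 0.57, adjusted p = 0.0413). Ccl5 stood at 0.01 ± 0.16 (adjusted p = 0.987) and Xcl1 at 0.07 ± 0.39 (adjusted p = 0.942). The summed macrophage level was 3215 to 5194 CPM in these treated libraries, against 13713 to 29048 CPM in the floxed ones, and with it as a covariate no ligand was called. The log2 fold changes were then -1.40 for Ccl3, -1.20 for Ccl4, -1.65 for Cxcl9, -1.22 for Cxcl16, -0.55 for Cxcl10 and 0.19 for Ccl8. Over all genes 21 were called with the covariate, against 1712 without it. Since the level did not overlap between these groups, the lost calls cannot separate it from the group difference. Of the 14 dendritic cell and antigen presentation genes 8 fell, and of 12 T cell genes 8 rose. Cd4 was at 796 to 1091 CPM in treated deficient and 233 to 470 CPM in floxed CD4 libraries. The Cxcl10 call was lost without each of the 6 libraries in turn (adjusted p 0.0525 to 0.128), and the Ccl8 call in 5 of those 6 fits (adjusted p 0.0274 to 0.19), all but the one without floxed CD4 replicate 2.

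CD8 cells were finally compared with CD4 cells under each condition. In floxed mice all 4 T cell made ligands were higher and all 4 others lower in CD8 cells, where 18.9% of genes were called higher and 20.2% lower. Xcl1 had the widest ratio of the T cell made ligands, with 98.8, 217 and 196 CPM in floxed CD8 libraries, against 16.7, 28.3 and 26.6 CPM in floxed CD4 libraries (2.84 ± 0.39, adjusted p = 4.66e-05). Ccl3 (1.57 ± 0.24, adjusted p = 4.67e-05), Ccl5 (1.56 ± 0.16, adjusted p = 1.87e-07) and Ccl4 (1.12 ± 0.18, adjusted p = 4.73e-05) followed. Ccl8 averaged 2.13 CPM in floxed CD8 and 89.8 CPM in floxed CD4 cells (-5.34 ± 0.71, adjusted p = 3.5e-05), Cxcl9 10.1 CPM in CD8 and 250 CPM in CD4 cells (-4.62 ± 0.50, adjusted p = 5.24e-06), Cxcl10 9.36 CPM in CD8 and 149 CPM in CD4 cells (-4.00 ± 0.29, adjusted p = 1.14e-08) and Cxcl16 15.9 CPM in CD8 and 107 CPM in CD4 cells (-2.77 ± 0.34, adjusted p = 4.07e-06).

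The summed macrophage level was 703 to 2271 CPM in floxed CD8 and 13713 to 29048 CPM in floxed CD4 libraries. Of the 14 dendritic cell and antigen presentation genes 11 were lower in floxed CD8 cells. Only 2 calls were kept with the macrophage level as a covariate, Ccl5 (1.85, adjusted p = 0.0211) and Cxcl10 (-3.45, adjusted p = 0.025). Over all genes 729 were called with it, against 5506 without it. The level did not overlap between these groups, so the lost calls cannot separate it from the cell type. The uncalled log2 fold changes were 2.34 for Ccl3 (adjusted p = 0.0631), 1.60 for Ccl4 (0.0843) and 3.18 for Xcl1 (0.108), each larger than without the covariate. Those of Cxcl9 (-2.98, 0.269), Ccl8 (-1.27, 0.758) and Cxcl16 (-0.88, 0.562, all adjusted p) were smaller in size than without it. Floxed CD4 libraries contained Cd8a at 7.82% of the floxed CD8 level, Cd8b1 at 10%, Xcl1 at 14%, Ccl3 at 33.8%, Ccl5 at 34.0% and Ccl4 at 45.9%.

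In deficient mice 3 ligands were higher in CD8 cells (6.21% of genes called higher) and 2 lower (9.39%). Xcl1 averaged 260 ± 28.7 CPM in deficient CD8 and 12.8 ± 3.71 CPM in deficient CD4 cells (4.39 ± 0.43, adjusted p = 7.69e-06), Ccl3 232 CPM in CD8 and 89.7 CPM in CD4 cells (1.37 ± 0.24, adjusted p = 0.000792) and Ccl5 117 CPM in CD8 and 77.3 CPM in CD4 cells (0.60 ± 0.16, adjusted p = 0.0118). Ccl4 averaged 133 ± 40.3 CPM in deficient CD8 and 125 ± 25.5 CPM in deficient CD4 cells and was not called (0.08 ± 0.18, adjusted p = 0.831, 95% interval -0.31 to 0.47). Cxcl10 (-1.65 ± 0.26, adjusted p = 0.000266) and Cxcl9 (-1.81 ± 0.44, adjusted p = 0.0124) were lower. Ccl8 (-1.94 ± 0.63, adjusted p = 0.0513) and Cxcl16 (-0.94 ± 0.33, adjusted p = 0.0594) were called with same-numbered libraries paired, at -1.83 (adjusted p = 0.000506) for Ccl8 and -0.98 (adjusted p = 0.0241) for Cxcl16. The Cxcl9 call was lost without deficient CD4 replicate 2 (adjusted p = 0.0639) and without the libraries rich in ribosomal-like counts (adjusted p = 0.0539). With the macrophage level as a covariate Cxcl9 was at -1.43 (adjusted p = 0.1). That level did not overlap between deficient CD8 and deficient CD4 libraries, so the lost call cannot separate it from the cell type. The Ccl5 call was lost without deficient CD8 replicate 3 (adjusted p = 0.0664) or deficient CD4 replicate 1 (adjusted p = 0.0618).

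In treated deficient mice all 8 were called again, 4 higher (9.36% of genes) and 4 lower (11%) in CD8 cells. Ccl3 averaged 560.2 ± 23.96 CPM in treated CD8 and 87.9 ± 10.1 CPM in treated CD4 cells (2.68 ± 0.25, adjusted p = 1.16e-06), and Ccl4 416 ± 14.98 CPM in CD8 and 85.0 ± 10.2 CPM in CD4 cells (2.30 ± 0.19, adjusted p = 1e-07). Xcl1 was at 3.30 ± 0.40 (adjusted p = 4.85e-05) and Ccl5 at 1.55 ± 0.16 (adjusted p = 8.98e-07). The other 4 were between -2.11 (Cxcl9) and -1.76 (Cxcl16), with adjusted p-values from 4.63e-05 (Cxcl10) to 0.0348 (Ccl8). The Ccl8 call was lost in 5 of 6 fits without a library (adjusted p 0.0408 to 0.144), all but the one without treated CD8 replicate 3, and without the libraries rich in ribosomal-like counts (adjusted p = 0.163). With the macrophage level as a covariate the 4 T cell made ligands were called and the other 4 were not, with Cxcl10 at -1.63 (adjusted p = 0.1), Cxcl9 at -1.08 (0.577), Cxcl16 at -0.46 (0.7) and Ccl8 at 0.48 (0.865). Over all genes 907 were called in that fit, against 2870 without the covariate. The macrophage level did not overlap between treated CD8 and treated CD4 libraries. Calls kept or lost with it thus cannot separate it from the cell type.

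**Figure D4:**
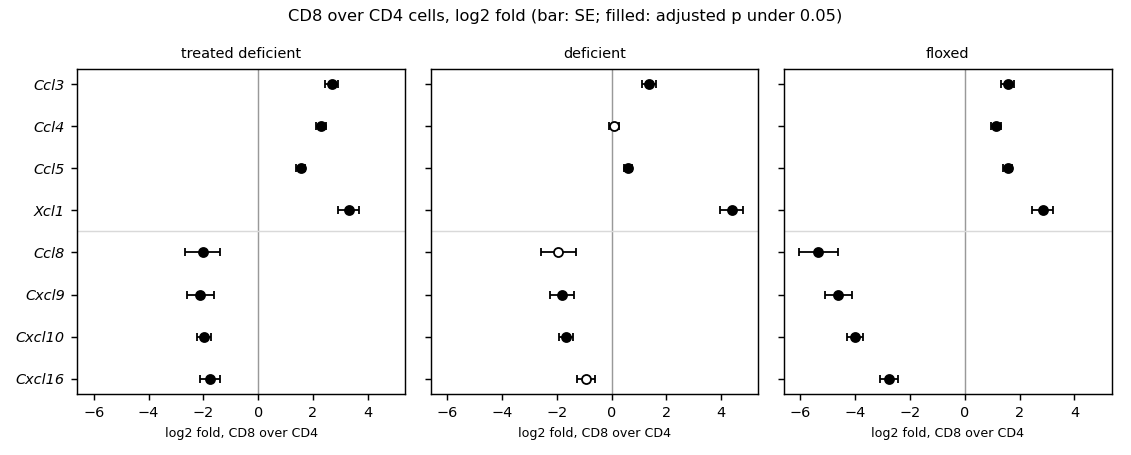
Log2 fold of the 8 ligands in CD8 over CD4 cells with its SE, in treated deficient, deficient and floxed mice, with filled points at an adjusted p under 0.05. Ccl4 is at 2.30 in treated deficient, 0.08 in deficient and 1.12 in floxed mice, and Ccl8, Cxcl9, Cxcl10 and Cxcl16 are left of 0 in all 3.

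The ratio of Ccl3 to Ccl4 within a library, per length of gene model, does not depend on the library's total. Its absolute size depends on the annotated lengths. It was 1.08, 1.15 and 1.26 in treated deficient CD8 libraries, below the 1.46, 1.49 and 1.55 of deficient CD8 libraries. Floxed CD8 libraries, at 1.47, 1.64 and 1.55, overlapped the deficient ones. In CD4 cells it was 1.03, 0.862 and 0.795 in treated deficient libraries, above the 0.459, 0.675 and 0.706 of deficient libraries. Floxed CD4 libraries stood at 1.02, 1.17 and 1.23, also above all deficient CD4 ones. Ccl3 was thus above Ccl4 in all 9 CD8 and all 3 floxed CD4 libraries and below it in all 3 deficient CD4 libraries. An exact two-sided permutation test of 3 against 3 libraries cannot go below p = 0.1, so none was run.

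**Figure D5:**
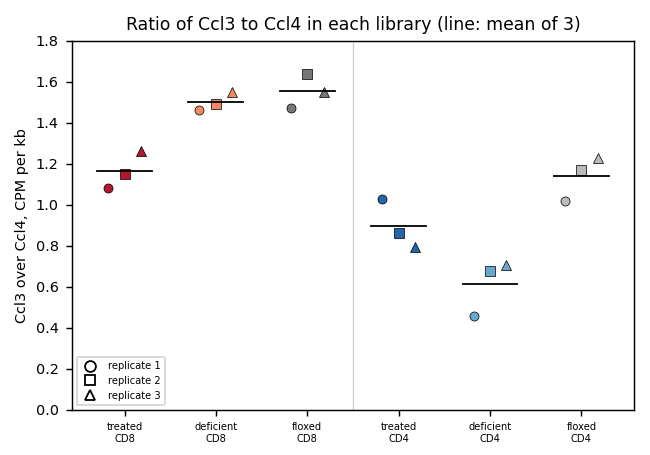
Ratio of Ccl3 to Ccl4, each in CPM per kb, in the 18 libraries by group, with the mean of 3 as a line and the shape giving the replicate number. Deficient CD4 libraries are lowest, at 0.459 to 0.706, and deficient and floxed CD8 libraries highest, at 1.46 to 1.64.

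The 3 genes whose log2 CPM most resembled each ligand over the 18 libraries were sought among 9986 genes with a mean of at least 5 CPM. The libraries fall into groups and cell types, so Pearson's r is given as a description, with no test. Ccl3 and Ccl4 had each other as the closest gene (r = 0.946). Ccl3 was also like Lrrk1 (0.939) and Nkg7 (0.938), a granule gene of cytotoxic cells, and Ccl4 like Plek (0.946) and Cd244a (0.931), a receptor of cytotoxic cells. Xcl1 was closest to Crtam (0.981) and to Eomes (0.972), a T-box factor of CD8 and natural killer cells, then Eno3 (0.966).

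Ccl5 was closest to Pmpca (0.942), Mcm4 (0.934) and Rrm2 (0.934); Mcm4 and Rrm2 serve DNA replication. Ccl8 was closest to Phf11a (0.968), C1qc (0.962), a complement gene of macrophages, and Bst2 (0.96), an interferon-induced gene. Cxcl9 was closest to Hcar2 (0.983), Tlr13 (0.975) and Tgfbi (0.974), and Cxcl10 to Nampt (0.984), Irf9 (0.966), which acts in the interferon response, and Iigp1 (0.965), an interferon-induced GTPase. Cxcl16 was closest to Itgb5 (0.963), Cd68 (0.962), a macrophage gene, and Apobec1 (0.961).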

How the data were processed

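Per the labels, RNA of flow-sorted tumor CD8+ and CD4+ T cells was isolated with the miRneasy micro kit and sequenced. The deposited values are read counts per gene, made, per the file headers, with featureCounts 1.5.1 at strand option 2 (reverse stranded) and Ensembl release 87. STAR, featureCounts, DESeq2 and the build GRCm38 are named in the submitters' processing notes, without versions there. Symbols came from GENCODE M21, which held 49326 of the 49671 IDs.

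All 18 libraries entered 1 quasi-likelihood fit of edgeR 4.0.16 under R 4.3.3, robust, with TMM scaling, the filter filterByExpr and 12 residual degrees of freedom. Adjusted p-values are Benjamini-Hochberg over 14080 genes, and a gene was called under 0.05. Each SE was derived from the test, as the size of the log2 fold change divided by the square root of the F statistic. The 95% intervals take t at 12 degrees of freedom and need not match the p-values. The fit was tested on simulated data for the CD8 deletion. The 11 comparisons had as alternatives another scaling, other count filters, DESeq2 1.42.0, limma 3.58.1 (voom), 1 cell type alone, replicate blocks, marker levels as covariates, and leaving out libraries. Leaving out the libraries rich in ribosomal-like counts and pairing within a mouse condition were chosen after seeing the data.

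The members and gene lists were chosen with earlier results of these data known. Named are the 8 members, the 3 genes most like each, Cxcr3, Xcr1, Cxcr6, Ifng, and, per list and deletion or blockade comparison, at most 6 called genes by adjusted p that reached 5 CPM on average in a group; some genes that the rule names are not reported here. Mir155hg, Cd8a, Cd8b1 and Cd4 were checks. Replicate numbers come from the labels. Same-numbered CD8 and CD4 libraries deviated together in treated deficient mice (r = 0.208, 0.116 and 0.418) and in deficient mice (r = 0.314, 0.19 and 0.24). In floxed mice they did so less (r = -0.0108, 0.105 and 0.178). The paired fit took same-numbered libraries as pairs in every mouse condition, floxed mice included.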

Additional observations from a re-analysis of the deposited data

Results flagged for a closer look

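For 8 results the effect in CD8 cells differed from that in CD4 cells by the interaction term of the edgeR fit (adjusted p under 0.05 over all genes). For the deletion effect, CD8 minus CD4, these were Ccl4 (-1.05, adjusted p = 0.00978), Ccl5 (-0.95, adjusted p = 0.00685), Ccl8 (3.40, adjusted p = 0.0288), Cxcl9 (2.81, adjusted p = 0.0103), Cxcl10 (2.35, adjusted p = 0.000559) and Cxcl16 (1.83, adjusted p = 0.0143). For the blockade effect they were Ccl4 (2.22, adjusted p = 0.00015) and Ccl5 (0.95, adjusted p = 0.0466). Groups of 3 libraries were not searched for single outlying samples.

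The macrophage marker level moved with the deletion differences, and with it as a covariate Ccl8 stood at 0.36 (adjusted p = 0.948), Cxcl9 at 1.55 (adjusted p = 0.627), Cxcl10 at 1.94 (adjusted p = 0.216), Cxcl16 at 0.41 (adjusted p = 0.833), Ccl4 at -1.41 (adjusted p = 0.163) and Ccl5 at -1.17 (adjusted p = 0.167). Over all genes 80 were called with that covariate, against 1634 without it. The Ccl8 difference was also lost in 7 of 12 fits without a library (adjusted p 0.0091 to 0.0981) and with limma voom (adjusted p = 0.0978). Without the libraries rich in ribosomal-like counts, the differences of Ccl8 (adjusted p = 0.137), Cxcl9 (0.0552) and Cxcl16 (0.105) were not called. The Ccl4 difference of the blockade effect was called in all 22 alternatives (2.01 to 2.43).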

How the results depend on the processing

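Of 1504 ligand values under 29 alternatives, 1316 stayed on their side of the threshold, 139 lost a call, 46 gained one and 3 turned round with a call lost. The 1316 include 67 that changed sign with no call on either side. Those that turned round were Ccl8 in treated deficient against floxed CD4 cells (0.19 with the macrophage level as covariate) and in CD8 against CD4 cells of treated mice (0.48 with that covariate, 0.47 with the melanoma level added).

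With macrophage and melanoma covariates, the ligands called were 1 in the CD8 deletion (5 in the report), 0 in CD4 cells for the deletion (4), 2 in CD8 cells for the blockade (5), 0 in the CD8 (1) and 0 in the CD4 (6) comparison of treated deficient with floxed cells, 2 in CD8 against CD4 cells of floxed (8) and 4 of treated mice (8), 0 for the difference of the deletion effect (6) and 1 for that of the blockade effect (2). With the macrophage level alone they were 0 (CD4 deletion), 3 (CD8 blockade), 0 (CD4, treated against floxed), 2, 4, 0 and 1. Without a filter on low counts 7 were called in the CD4 deletion, 3 in the CD4 blockade, 5 in treated deficient against floxed CD8 cells and 4 for the difference of the blockade effect. In treated deficient against floxed CD8 cells 2 were called with the stricter filter, 3 with DESeq2, 0 with voom and 2 with the replicate block. For the difference of the blockade effect 1 was called with RLE scaling, the stricter filter and voom. Without the libraries rich in ribosomal-like counts 0, 3 and 1 were called for treated deficient against floxed CD8 cells and the differences of the deletion and blockade effects. Leaving out 1 library gave 4 to 5 calls in the CD8 deletion, 3 to 4 in that of CD4 cells, 3 to 5 in the CD8 blockade, 0 to 2 in treated deficient against floxed CD8 cells and 1 to 3 for the difference of the blockade effect. The causes were not tested.

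Over all genes, calls ranged from 130 to 3196 in the CD8 deletion (2712), 8 to 2107 in that of CD4 cells (1643), 239 to 2401 in the CD8 blockade (1941) and 0 to 541 in the CD4 blockade (20). They were 58 to 1574 and 21 to 2179 for treated deficient against floxed CD8 (706) and CD4 cells (1712), 729 to 5853, 1331 to 2634 and 907 to 3237 for CD8 against CD4 cells of floxed (5506), deficient (2196) and treated mice (2870), and 80 to 2026 and 49 to 665 for the differences of the deletion (1634) and blockade effects (113).

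Outside the paired libraries, shared replicate numbers gave correlations of -0.175 to 0.29, and in treated deficient against floxed CD8 cells each library correlated best with its own number. The replicate block there called Cxcl9 in the CD4 deletion (-1.30, adjusted p = 0.0404) and Ccl3 in treated deficient against floxed CD8 cells (-0.67, adjusted p = 0.0336), raised the CD4 blockade to 65 genes, and changed no other call of a ligand outside those given in the report. Another scaling moved the median of all genes by at most 0.0353 on the log2 scale in size. Depth limits Ccl8 and Cxcl16 in CD8 cells most, with 7 to 83 and 16 to 162 counts per library.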
